A study of Mus musculus with 2 samples.

Results

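The genes described here encode the potassium channels that lie outside the main voltage-gated families, together with the accessory proteins that bind potassium channels. The channels are the inward rectifiers (Kcnj), the two-pore leak channels (Kcnk), the calcium-activated and sodium-activated channels (Kcnn, Kcnma and Kcnt) and a related channel (Kcnu). The accessory subunits are those of large-conductance channels (Kcnmb), of Kv1 channels (Kcnab), of Kv4 channels (Kcnip) and of several other channels (Kcne). All these genes were chosen by gene symbol among the protein-coding genes, by a rule that uses no measured value. They number 52 of the 55536 annotated genes measured. Earlier results of these data were known when they were chosen. Total RNA was sequenced from left cerebral cortex tissue of 2 males of the B6CASTF1/J strain, 2 months old, an F1 hybrid of a C57BL/6 and a Mus musculus castaneus parent strain, with 1 library per animal made from 300 ng of RNA. There is 1 group, with no treatment, genotype contrast or second tissue. The labels number the males separately but place both under 1 donor record, so the replicate error given here is the spread between these tissue samples.

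Potassium channels set the resting potential of neurons and glia and end electrical activity. Inward rectifiers pass current best near and below the potassium equilibrium potential, leak channels conduct at rest, and calcium-activated and sodium-activated channels open when those ions enter during firing. Accessory subunits conduct nothing themselves; they change the gating, the surface delivery or the pharmacology of the pore-forming subunits with which they assemble.

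Levels are deposited gene values in TPM, the number of transcripts of a gene among 1e+06 transcripts, which are scaled for transcript length and can be compared between genes, and errors are SD over the 2 animals. The libraries held 33007629 expected counts in replicate 1 and 32142918 in replicate 2. A count of 0 allows up to 0.0909 CPM (counts among 1e+06 counts) in replicate 1 and 0.0933 in replicate 2, a limit that rests on 3 counts and covers counting error only. Across all measured genes the chi-square of the counts per degree of freedom between the libraries was 6.44, so the libraries were not copies of 1 another. A second deposited quantification, made from reads with a transcript index, is called the other quantification below and gives the processing spread beside the animal spread.

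Of the 52 members, 36 had a TPM of at least 1 in both animals, or 69.2%, where 58.9% of the 21951 protein-coding genes did. Among them 25 had a mean TPM of at least 10 and 8 of at least 50. The summed TPM of all members was 1157 in replicate 1 and 1140 in replicate 2 (1148 ± 12.2), which was 0.234% and 0.237% of the TPM of all protein-coding genes. The sum was uneven. The highest gene, Kcnab2, made up 14.7% ± 0.145 of it, the 5 highest 40.6% ± 0.246 and the 10 highest 62.9% ± 0.468. Just inside the limit of detection was Kcnj14 with 1.17 and 1.03 TPM, and just outside was Kcnj8 with 0.80 and 0.85.

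**Figure D1:**
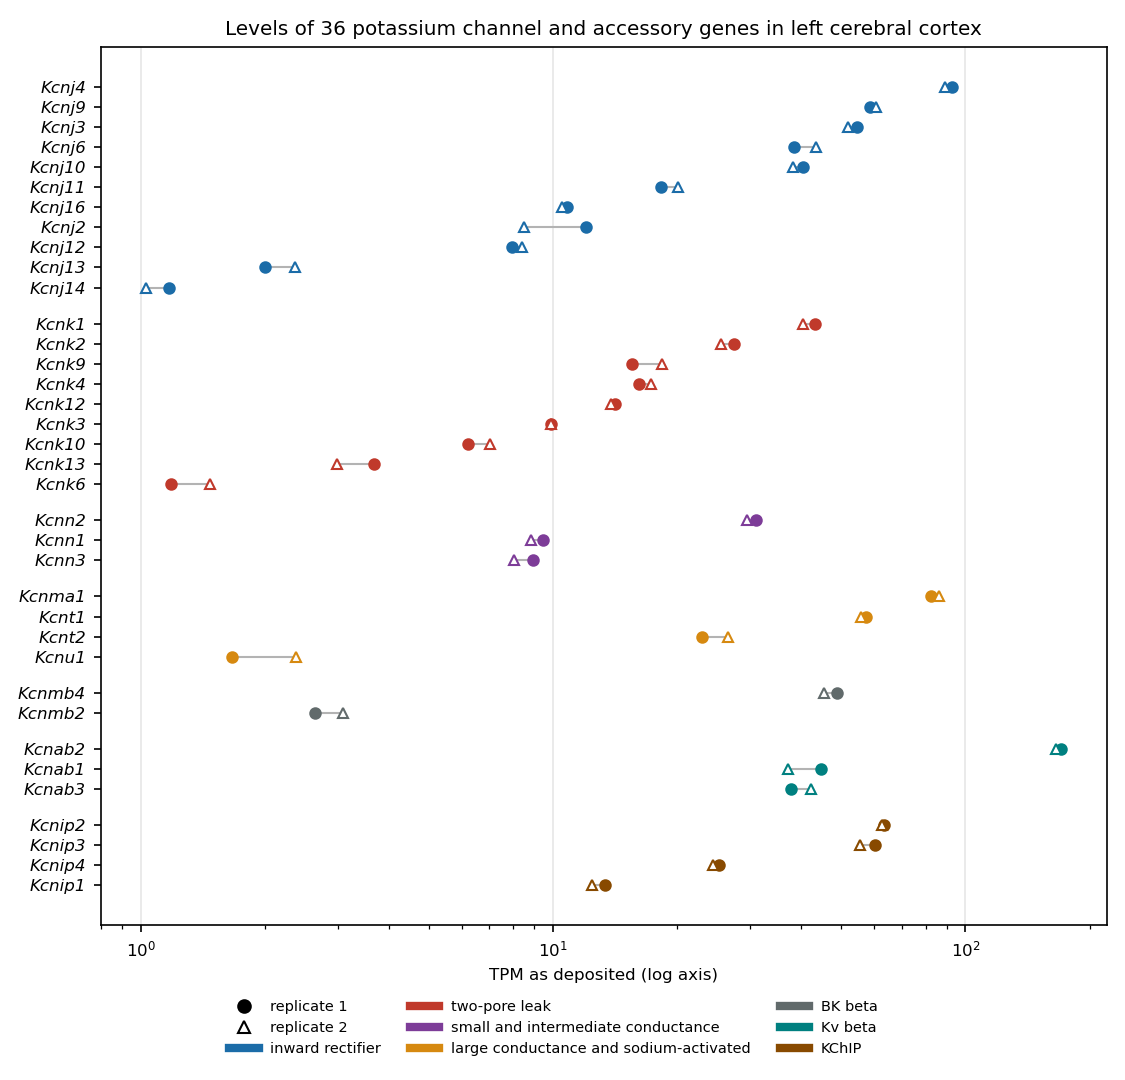
TPM (log axis) of the 36 members detected in both animals, grouped by class, with a filled circle for replicate 1 and an open triangle for replicate 2. Kcnab2 stands highest with 170.75 and 165.87 TPM, and the points of the 2 animals lie close together for most genes; Kcnj2, with 11.99 and 8.48 TPM, has a wider gap than the other genes above 10 TPM in mean.

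The inward rectifiers carried the largest class share of the summed TPM, 29.3% ± 0.131. In the other quantification their share was 26.0% ± 0.562, within the spread of the 26.4% ± 1.64 of the Kv beta genes. Of 15 genes, 11 were detected, and the class summed to 338 TPM in replicate 1 and 335 in replicate 2. In bulk tissue, fewer cells of a type and less RNA per cell cannot be told apart, and this holds for all levels below.

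Kcnj4 (ENSMUSG00000044216.7, mm10 chr15:79483714-79505241, minus strand), a strongly rectifying Kir2 channel of forebrain neurons, was the highest inward rectifier, at 92.56 TPM in replicate 1 and 89.11 in replicate 2. It stood 9.11 ± 1.97 times above Kcnj2, another Kir2 subunit, which had 11.99 and 8.48 TPM, and 11.1 ± 0.712 times above Kcnj12, with 7.96 and 8.39 TPM. Kcnj14, the remaining Kir2 gene, was near the limit of detection. The Kir2 genes thus summed to 114 and 107 TPM, with Kcnj4 providing most of it in both animals. Kcnj2 is the member whose position changed between the animals: it lay above Kcnj12 in replicate 1 and level with it in replicate 2.

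The Kir3 genes encode the G protein-gated channels that inhibitory receptors open, and they summed to 152 TPM in replicate 1 and 156 in replicate 2, more than the Kir2 genes in each animal. Kcnj9, Kcnj3 and Kcnj6 were expressed at similar levels. Kcnj9 had 58.69 and 60.62 TPM, Kcnj3 had 54.67 and 51.82, and Kcnj6 had 38.42 and 43.44. The ratio of Kcnj9 to Kcnj3 was 1.12 ± 0.0681 (1.06 in the other quantification) and that of Kcnj3 to Kcnj6 was 1.31 ± 0.163. The order Kcnj9, Kcnj3, Kcnj6 was the same in each animal. Kcnj5, the subunit known from heart atrium, had 0.32 and 0.20 TPM from 24 and 17 counts and was below the limit of detection.

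Genes for receptors that open Kir3 channels were present throughout: 13 of 13 listed were detected and 7 had a mean TPM of at least 10. The GABA-B receptor subunits were the highest of these, with 312 and 303 TPM for Gabbr1 and 117 and 118 for Gabbr2, followed by the adenosine receptor Adora1 with 83.5 and 83.2 and the cannabinoid receptor Cnr1 with 61.9 and 53.9. The regulators of Kir3 signalling were detected in 6 of 6 cases, each above 10 TPM on average. Rgs7bp, which anchors a G protein accelerator at the membrane, had 79.0 and 73.3 TPM, its partner complex Rgs7 and Gnb5 had means of 54.4 ± 1.73 and 72.7 ± 1.03, and the GABA-B auxiliary subunit Kctd16 had 53.1 and 58.2. Snx27, a sorting protein that binds Kir3 subunits, had 45.8 and 47.1 TPM, close to the level of Kcnj6.

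Kcnj10, the potassium-buffering channel of astrocytes, had 40.27 TPM in replicate 1 and 38.22 in replicate 2. Its partner Kcnj16, which forms mixed channels with it, had 10.82 and 10.48. The ratio of the pair was 3.72 and 3.65 in the 2 animals (3.68 ± 0.0529) and 3.62 ± 0.144 in the other quantification. Genes of the astrocyte end-foot, where Kcnj10 protein is concentrated, were detected in 6 of 6 cases, with 31.4 ± 0.495 TPM for the water channel gene Aqp4 and 81.6 ± 3.27 for the gap junction gene Gja1. Kcnj15, the remaining member of this subgroup, was not detected.

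For the ATP-sensitive channels, which close when cellular ATP is high, Kcnj11 had 18.23 and 20.05 TPM and Kcnj8, the pore subunit known from vascular mural cells, 0.80 and 0.85. Kcnj11 was 23.2 ± 0.566 times the higher, and 22.5 ± 0.262 times in the other quantification. The regulatory subunits had the same order, with 16.39 and 17.04 TPM for Abcc8 and 2.33 and 2.08 for Abcc9, a ratio of 7.61 ± 0.819. Abcc8 stood at 0.874 ± 0.0348 of the level of Kcnj11. Kcnj13, known from choroid plexus and pigment epithelium, had 2.00 and 2.36 TPM from 51 and 59 counts. Kcnj1, the renal channel, was near 0.

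The two-pore leak channels were a broad class of moderate levels. Of 14 genes, 9 were detected, and they summed to 138 TPM in replicate 1 and 137 in replicate 2, a share of 11.95% ± 0.0909. Kcnk1, a weakly conducting leak channel of the TWIK type, was the highest, with 43.03 and 40.25 TPM, and 1.57 times Kcnk2 in both animals.

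The mechanically and lipid-gated TREK and TRAAK genes summed to 49.75 TPM in replicate 1 and 49.85 in replicate 2. Kcnk2 had 27.38 and 25.59 TPM, Kcnk4 had 16.15 and 17.25, and Kcnk10 had 6.22 and 7.01. Kcnk2 was 4.03 ± 0.531 times Kcnk10. Kcnk4 overlaps Catsperz on the same strand, which had 10.3 and 10.2 TPM. The counts of Kcnk4 also carried some of the little assignment uncertainty recorded in the family, a posterior SD of at most 1.16% of the count. The acid-sensitive TASK genes followed, with 15.50 and 18.38 TPM for Kcnk9 and 9.87 and 9.90 for Kcnk3. Kcnk9 lay above Kcnk3 in each animal, by 1.57 and 1.86 times. Kcnk15 was near 0.

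The THIK genes had 14.13 and 13.77 TPM for Kcnk12 and 3.68 and 2.99 for Kcnk13, the latter known from microglia. Marker genes of microglia summed to 68.0 and 65.0 TPM. Kcnk6 was near the limit of detection with 1.18 and 1.47 TPM. Kcnk5 had 0.27 and 0.18, and Kcnk16 and Kcnk18 had no count in either animal, as did the accessory gene Kcne1.

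The small-conductance channels, which calcium opens through bound calmodulin and which contribute to the afterhyperpolarization that follows firing, summed to 49.6 and 46.5 TPM with the intermediate-conductance gene included, 4.19% ± 0.143 of the family. Kcnn2 led with 31.01 TPM in replicate 1 and 29.46 in replicate 2. It was 3.31 ± 0.0388 times Kcnn1, which had 9.45 and 8.83, and 3.57 ± 0.132 times Kcnn3, which had 8.93 and 8.05. Kcnn1 and Kcnn3 were close to each other: Kcnn3 in replicate 1 exceeded Kcnn1 in replicate 2. Kcnn4, the intermediate-conductance channel known from blood cells and epithelium, had 8 counts in each animal and 0.20 TPM.

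Among the large-conductance and sodium-activated channels all 4 genes were detected, with 164 and 171 TPM in sum. Kcnma1 (ENSMUSG00000063142.15, mm10 chr14:23289431-24014491, minus strand), the pore of the BK channel opened jointly by calcium and voltage, had 82.28 and 86.16 TPM. Kcnt1 and Kcnt2, the sodium-activated channels, had 57.34 and 55.94 TPM and 22.96 and 26.61 TPM, a ratio of 2.30 ± 0.279. This ratio is of all transcripts and gives no order of the 2 genes in coding RNA. Forms annotated as protein coding took a mean of 27.4% of the Kcnt1 TPM and 96.4% of the Kcnt2 TPM. Kcnu1, a related channel known from sperm, had 1.66 and 2.38 TPM from 48 and 60 counts.

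Kcnma1 is known for splice variants that alter its calcium sensitivity. It has 38 annotated transcripts, of which Kcnma1-205, with 12094 bases and 1209 codons, took 65.2% ± 1.28 of the total for the gene (58.3% in the other quantification). The 4 coding exons below were each included in part of the Kcnma1 forms. They are printed because their inclusion lay between 5 and 95% in every library and quantification; other coding exons of Kcnma1, such as 1 of 174 bases included in 4.99% and 4.10%, fell outside these limits. The exon is in capitals, with 12 bases of the neighbouring exons in lower case, 5′ to 3′ along the minus strand of chromosome 14, from the GENCODE M21 transcripts of build mm10.
Kcnma1 exon of 12 bases: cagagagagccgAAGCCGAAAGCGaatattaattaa
Kcnma1 exon of 81 bases: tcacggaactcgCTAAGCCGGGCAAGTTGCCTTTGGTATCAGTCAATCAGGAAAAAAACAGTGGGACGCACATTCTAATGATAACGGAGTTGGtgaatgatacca
Kcnma1 exon of 9 bases: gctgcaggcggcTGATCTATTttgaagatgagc
Kcnma1 exon of 29 bases: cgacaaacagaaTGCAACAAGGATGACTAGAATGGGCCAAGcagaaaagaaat

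The 12-base exon (chr14:23449200-23449211, exon 17 of Kcnma1-205) was included in 77.4% of the TPM of forms that could include or skip it in replicate 1 and 77.2% in replicate 2, and in 76.7% ± 1.73 in the other quantification. The 81-base exon (chr14:23336040-23336120, exon 25 of Kcnma1-205) was included in 81.0% and 87.3%, and in 79.2% ± 5.31 in the other quantification. Both therefore belonged to the major form in each animal. The 9-base exon (chr14:23432233-23432241) was a minor one, included in 11.4% and 7.22%. The 29-base exon near the end of the gene (chr14:23306725-23306753) was included in 18.5% and 19.0% and in 16.3% ± 0.519 in the other quantification. It does not hold a whole number of codons, so the forms with and without it read different frames after it. These inclusion values rest on estimated transcript levels among annotated forms and not on junction reads.

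Kcnt2 had 1 cassette exon of the same kind and Kcnt1 another. They are shown for the same reason, in the plus-strand sense of mm10.
Kcnt2 exon of 72 bases: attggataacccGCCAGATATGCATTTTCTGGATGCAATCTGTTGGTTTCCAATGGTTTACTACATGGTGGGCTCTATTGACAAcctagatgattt
Kcnt1 exon of 42 bases: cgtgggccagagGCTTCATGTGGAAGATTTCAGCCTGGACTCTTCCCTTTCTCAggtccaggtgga

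The Kcnt2 exon (chr1:140530753-140530824) was included in 63.5% and 67.1% of the TPM of Kcnt2 forms that could include or skip it, and in 64.4% ± 0.27 in the other quantification. The Kcnt1 exon (chr2:25882196-25882237, exon 2 of Kcnt1-201) was included in 33.8% and 38.4%, against 26.1% ± 1.16 in the other quantification. The values of Kcnt1 thus differed more between quantifications than between animals, and those of Kcnt2 did not. The inclusion of the Kcnt1 exon also counts forms not annotated as protein coding, so it is not a share of coding RNA. Kcnt1-201, which holds the exon, took 73.0% and 80.8% of the TPM of the protein-coding Kcnt1 forms.

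Kcnt1 also stood out by the kind of its transcripts. Forms annotated as protein coding took 28.7% of its TPM in replicate 1 and 26.1% in replicate 2, the lowest value among the 25 members whose forms were read (mean TPM of at least 5 and more than 1 annotated transcript). Forms annotated as retained intron took 57.8% and 64.2%, and 60.1% ± 7.36 in the other quantification. A form annotated for nonsense-mediated decay took 13.5% and 9.62%. Kcnt1-206, a retained-intron form of 6639 bases, was its leading transcript at 22.9% and 31.5%, and no other member had a leading transcript that was not protein coding. In the other quantification the leading Kcnt1 form was Kcnt1-209.

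Kcnn3 divided nearly evenly between its 2 annotated transcripts. The protein-coding Kcnn3-201 took 52.9% and 52.5% and the retained-intron Kcnn3-202, with 8314 bases, took 47.1% and 47.5%, with 45.7% ± 0.352 in the other quantification. Kcnab3 had 36.0% ± 0.442 in retained-intron forms and Kcnk2 had 22.0% and 20.5% in 1 form annotated for nonsense-mediated decay. In all, 7 of the 25 had a mean of less than 80% of their TPM in protein-coding forms in the main tables: Kcnt1, Kcnn3, Kcnab3, Kcnk4, Kcnab1, Kcnk2 and Kcnn2. In the other quantification Kcnip3 (71.5%) and Kcnn1 (76.4%) were also below 80%. For these genes in particular the gene TPM is not a measure of protein-coding RNA alone.

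**Figure D2:**
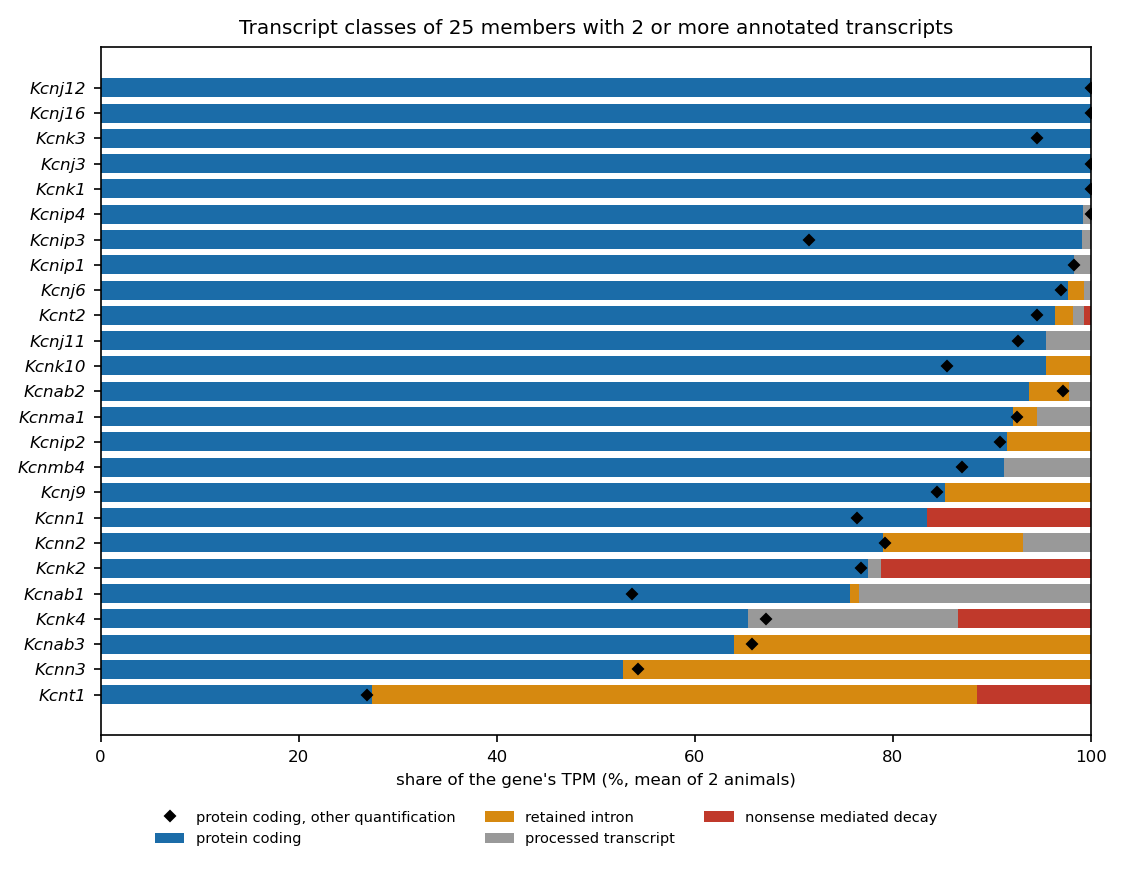
Share of each gene's TPM (%, mean of 2 animals) in transcripts annotated as protein coding, retained intron, processed transcript or nonsense-mediated decay, for 25 members, with a diamond for the protein-coding share in the other quantification. Kcnt1 has the smallest protein-coding share, 27.4%, and Kcnn3 the next at 52.7%; the diamonds lie far from the bars for Kcnip3 and Kcnab1.

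In Kcnk2 the form annotated for nonsense-mediated decay lacks 1 coding exon of 118 bases (chr1:189295594-189295711, minus strand), exon 4 of Kcnk2-202. The exon is printed because its loss separates the coding from the decay-annotated transcripts of this leak channel.
Kcnk2 exon of 118 bases: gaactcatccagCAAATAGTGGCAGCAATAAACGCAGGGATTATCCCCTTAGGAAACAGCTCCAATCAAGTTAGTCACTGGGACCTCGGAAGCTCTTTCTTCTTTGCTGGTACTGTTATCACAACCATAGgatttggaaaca

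The Kcnk2 exon was included in 78.0% and 79.0% of the TPM of forms that could include or skip it, and in 76.8% ± 3.49 in the other quantification. Kcnk4, its relative, had a comparable exon of 127 bases included in 85.9% and 73.9%, but in 80.8% and 57.9% in the other quantification, so its level is not settled. Which coding form of Kcnk2 leads is not settled either: Kcnk2-201 took 23.9% ± 4.59 in the main tables and 5.22% ± 1.87 in the other quantification.

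Among the accessory subunits, the Kv beta and KChIP genes were abundant and the MinK-related genes were not. The Kv beta genes, which bind Kv1 channels in the cytoplasm and hold an oxidoreductase fold, were all 3 detected and made up 21.7% ± 0.254 of the summed TPM (26.4% ± 1.64 in the other quantification). Kcnab2 (ENSMUSG00000028931.11, mm10 chr4:152390742-152477871, minus strand) had 170.75 TPM in replicate 1 and 165.87 in replicate 2, the highest level of the 52 genes. Kcnab1 had 44.71 and 37.19, and Kcnab3 had 37.65 and 42.17. Kcnab2 was 4.14 ± 0.453 times Kcnab1 and 4.23 ± 0.426 times Kcnab3 (4.69 ± 1.48 and 6.11 ± 0.379 in the other quantification). In the main tables the order of Kcnab1 and Kcnab3 was reversed between the animals. In the other quantification Kcnab1 was the higher in each animal, with 87.9 and 70.0 TPM against 54.7 and 62.9 for Kcnab3. Their Kv1 partners were detected in 6 of 8 cases, led by Kcna2 with 69.0 and 71.6 TPM and Kcna1 with 52.6 and 53.1; none of these reached the level of Kcnab2.

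Kcnab2 also had the highest ratio of the other quantification to the main value among the 36 members with a mean TPM of at least 1. Its ratio was 2.14, where the median of the members was 1.52 and that of protein-coding genes 1.57. The lowest ratio, 0.966 for Kcnmb2, lay on the other side of these medians. The leading Kcnab2 form was Kcnab2-201 with 39.6% ± 0.749 in the main tables. In the other quantification Kcnab2-201 took 18.1% ± 1.20, and the lead differed between the animals. Kcnab2-207 led there in replicate 1, at 40.2% against 23.4% for Kcnab2-211. In replicate 2 Kcnab2-211 led, at 36.1% against 25.8% for Kcnab2-207. Kcnab2-211 is a short form of 404 bases and 38 codons, and it took 1.98% ± 0.44 in the main tables. The exon that separates several Kcnab2 forms (chr4:152434782-152434823) was included in 54.8% and 55.8%, and in 75.9% and 67.9% in the other quantification. It is printed as the place where these forms differ.
Kcnab2 exon of 42 bases: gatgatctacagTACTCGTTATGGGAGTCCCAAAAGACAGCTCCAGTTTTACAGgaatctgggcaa

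The KChIP genes, calcium-binding subunits of the Kv4 channels that carry the A-type current, were all 4 detected and made up 13.8% ± 0.296. Kcnip2 had 63.31 and 62.81 TPM and Kcnip3 had 60.30 and 55.46. Kcnip2 was the higher in each animal, by 1.05 and 1.13 times, but the other quantification gave ratios of 0.882 and 1.01, so the order of these neighbours is not settled. Kcnip4 had 25.26 and 24.34 TPM and Kcnip1, known from interneurons, had 13.34 and 12.41. The Kv4 channels and their transmembrane partners were detected in 5 of 5 cases, with 33.1 and 30.2 TPM for Kcnd2, 26.1 and 26.5 for Kcnd3, 81.8 and 76.7 for Dpp6 and 66.8 and 63.9 for Dpp10. Kcnip2 and Kcnip3 were each above Kcnd2 and Kcnd3 in both animals.

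The exons near the start of Kcnip1 and Kcnip2 are shown because they give the amino-terminal variants by which KChIP proteins are known to differ.
Kcnip1 exon of 33 bases: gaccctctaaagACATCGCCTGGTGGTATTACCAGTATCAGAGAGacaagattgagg
Kcnip2 exon of 54 bases: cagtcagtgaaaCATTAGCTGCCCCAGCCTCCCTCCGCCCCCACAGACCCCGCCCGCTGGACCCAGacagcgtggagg

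The Kcnip1 exon (chr11:33651540-33651572, minus strand, exon 2 of Kcnip1-203) was included in 47.2% and 46.3% of the TPM of the 2 forms that include or skip it, and in 48.1% ± 5.88 in the other quantification, so these forms, Kcnip1-203 with it and Kcnip1-201 without it, were close in level, at 44.1% and 40.5% and at 49.2% and 47.0% of the TPM of Kcnip1. The Kcnip2 exon (chr19:45796279-45796332, minus strand, exon 3 of Kcnip2-209) was included in 69.1% and 83.8%, and in 80.9% and 92.4% in the other quantification. It was higher in replicate 2 by both quantifications, with 1 animal each and no test.

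**Figure D3:**
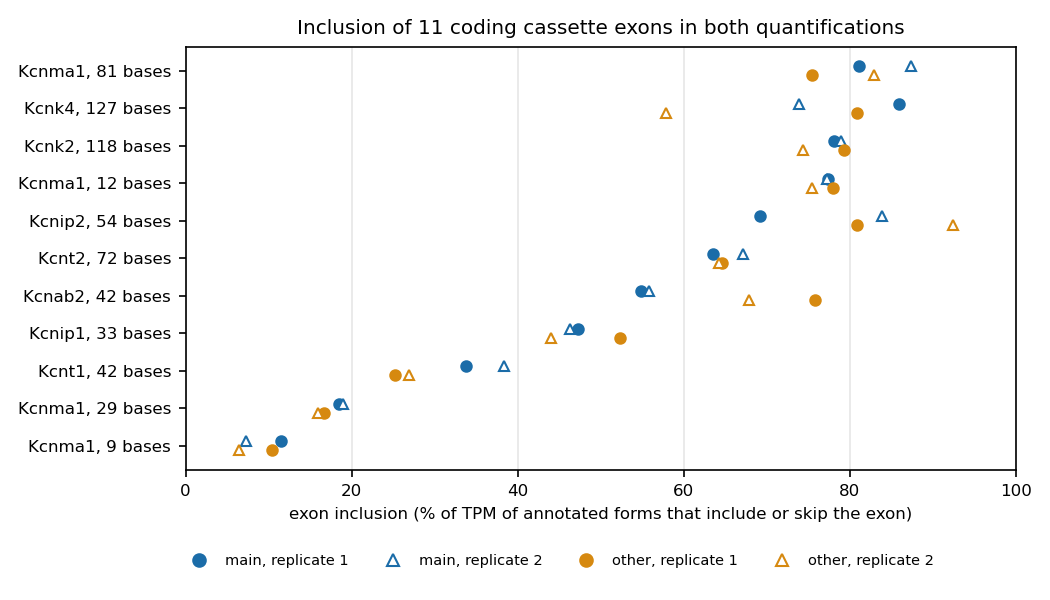
Inclusion (%) of the 11 coding cassette exons that lay between 5 and 95% in every library and quantification, in blue for the main tables and orange for the other quantification, with circles for replicate 1 and triangles for replicate 2. The 12-base exon of Kcnma1 and the 72-base exon of Kcnt2 hold together, whereas the 127-base exon of Kcnk4 and the 54-base exon of Kcnip2 spread widely.

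The BK beta genes made up 4.36% ± 0.150. Kcnmb4, the neuronal beta subunit that slows BK gating and gives toxin resistance, had 48.86 TPM in replicate 1 and 45.27 in replicate 2. Kcnma1 stood at 1.79 ± 0.155 times Kcnmb4. Kcnmb2, an inactivating subunit, had 2.64 and 3.09 TPM from 108 and 85 counts, and Kcnmb1, the smooth muscle subunit, 0.13 and 0.11. Kcnmb4 was 16.6 ± 2.73 times Kcnmb2 in the main tables and 30.0 ± 0.354 times in the other quantification. Of the other BK accessory family, the gamma subunits, Lrrc55 had 17.3 and 16.1 TPM and Lrrc38 had 1.14 and 1.01, while Lrrc26 and Lrrc52 had 1 count each in replicate 1 and none in replicate 2. The start of Kcnmb4 overlaps an antisense gene, Kcnmb4os2, with 9.34 and 8.25 TPM, and whether strand was used in the counting is not given in the sources used here.

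The MinK-related genes, single-span subunits of KCNQ1 and HERG-type channels, were the 1 class with no member detected, with 0.42 and 1.12 TPM in sum. Kcne4 was the highest with 0.39 and 0.64 TPM, and Kcne1 had no count. Of their channel partners, Kcnq1 was also low, with 0.17 and 0.27 TPM, while Kcnq3 had 57.3 and 62.1 and Kcnh2 had 14.4 and 12.6. Kcne2, known for its high level in choroid plexus, had 1 count in replicate 1 and 9 in replicate 2, a ratio with a counting interval of 0.35 to 8.65 on the log2 scale. The choroid plexus marker list summed to 10.4 TPM in replicate 1 and 92.5 in replicate 2, nearly all of it from Ttr with 8.58 and 89.16 TPM. Kl, the other of its 4 genes detected in both animals, had 1.80 and 2.18 TPM, Folr1 had 0 and 0.80, and Otx2 had 0.07 and 0.38. The part of choroid plexus RNA in the Kcne2 counts was not tested.

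The animals were then compared directly, with log2 ratios of normalised counts, replicate 2 over replicate 1, for the 41 members with a mean count of at least 10. With 1 animal on each side these ratios have no replicate check; their intervals are exact binomial (Clopper-Pearson) and cover counting error only. None of the 41 members differed by 2-fold or more, where 1.80% of 18490 genes did. By contrast 16 members, or 39.0%, differed by more than their counting interval, 7 higher and 9 lower in replicate 2, where 22.6% of all genes did. The members had more counts than other genes, with a median of 1130 against 373, and intervals are narrower at higher counts. With a minimum of 100 in place of 10 the values were 15 of 32 members and 3452 of 12817 genes (26.9%). The share of the members was thus above that of all genes at both minima. The part of counting depth in this was not tested. Their median ratio was -0.033 (all genes 0.00035) and their median absolute ratio 0.14 (all genes 0.107).

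Of these 16, 5 had an absolute log2 ratio of at least 0.2. Kcnj2 was lower in replicate 2 by the largest amount, with 1395 and 969 counts and a log2 ratio of -0.49 (-0.61 to -0.38). Kcnab1 was lower, with 2552 and 1996 counts and -0.32 (-0.41 to -0.24), and Kcnk13 was lower, with 237 and 189 counts and -0.29 (-0.58 to -0.01). Kcnk9 was higher, with 4118 and 4793 counts and 0.25 (0.19 to 0.31), and Kcnt2 was higher, with 2007 and 2264 counts and 0.20 (0.12 to 0.29). The other 11 had absolute log2 ratios of 0.034 to 0.166. Spike-in scaling, which moved the median of all genes to 0.316, gave a ratio of -0.0045 for Kcnab1 and 0.023 for Kcnk13, neither beyond counting error. It gave -0.18 for Kcnj2, 0.57 for Kcnk9 and 0.52 for Kcnt2.

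Other tissue markers moved between the animals as well. The 7 striatal marker genes were all lower in replicate 2, with a summed TPM of 288 in replicate 1 and 163 in replicate 2 and a median log2 ratio of -0.89, each beyond its counting interval. The 5 oligodendrocyte genes were all lower too (766 and 620 TPM in sum), and of the 3 thalamic genes 2 were lower beyond their interval (28.2 and 21.7 TPM in sum for the 3). The third, Tcf7l2, had a log2 ratio of -0.12 with an interval that included 0, from 239 and 215 counts. Its TPM was 3.93 and 3.99. Excitatory neuron markers summed to 1752 and 1835 TPM, with 1 of 4 higher beyond its interval (Camk2a) and 1 lower beyond it (Neurod6). Inhibitory neuron markers summed to 553 and 512, with 4 of 6 lower beyond their interval. Astrocyte markers summed to 1000 and 1012, with 1 of 5 higher beyond its interval (Slc1a2) and 2 lower beyond it (Gfap and Aqp4). Mural cell markers summed to 64.9 and 64.3. Red blood cell genes summed to 302 and 246 TPM, with 2 of 3 lower beyond their interval, and endothelial genes to 49.8 and 46.6, with 1 of 3 lower beyond it, Cldn5 at a log2 ratio of -0.27. The dopamine receptor gene Drd2, 1 of the Kir3-coupled receptors and strongly expressed in striatum, had 6.45 and 1.53 TPM. The part of these tissue differences in the lower Kcnj2, Kcnab1 and Kcnk13 values was not tested.

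By class, the 4 large-conductance and sodium-activated genes were all higher in replicate 2 in counts under TMM scaling. Of these, 3 were beyond the counting interval. Among the 18490 measured genes, 2026 were higher beyond their interval and 4172 were beyond it in either direction. The interval of Kcnu1 was -0.22 to 0.93 and that of Kcnma1 0.002 to 0.066. These 4 genes were also all higher under the other count scalings, prior counts and minima run. In the other quantification they were all higher too, with a smallest ratio of 0.0053. DESeq2 size factors gave nearly the TMM ratios (0.034 to 0.34 in both), so they are no separate check. The 4 KChIP genes were all lower under TMM, with 1 beyond its counting interval, and all higher under spike-in scaling. The 3 measured small-conductance genes (1 beyond it) and the 3 measured BK beta genes (0 beyond it) were likewise all lower under TMM and all higher under spike-in scaling. That scaling moves every gene up together, and relative to its median of 0.316 over all genes these 3 classes were still on the low side, with ratios of 0.21 to 0.30 for KChIP, 0.16 to 0.21 for small-conductance and 0.0044 to 0.23 for BK beta genes. Counts and TPM gave opposite directions for 4 members: Kcnt1, Kcnj3, Kcnj11 and Kcnmb2. Of these only Kcnt1 was beyond its counting interval, with 4307 and 4717 counts but 57.34 and 55.94 TPM, so its direction between the animals depends on the unit.

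**Figure D4:**
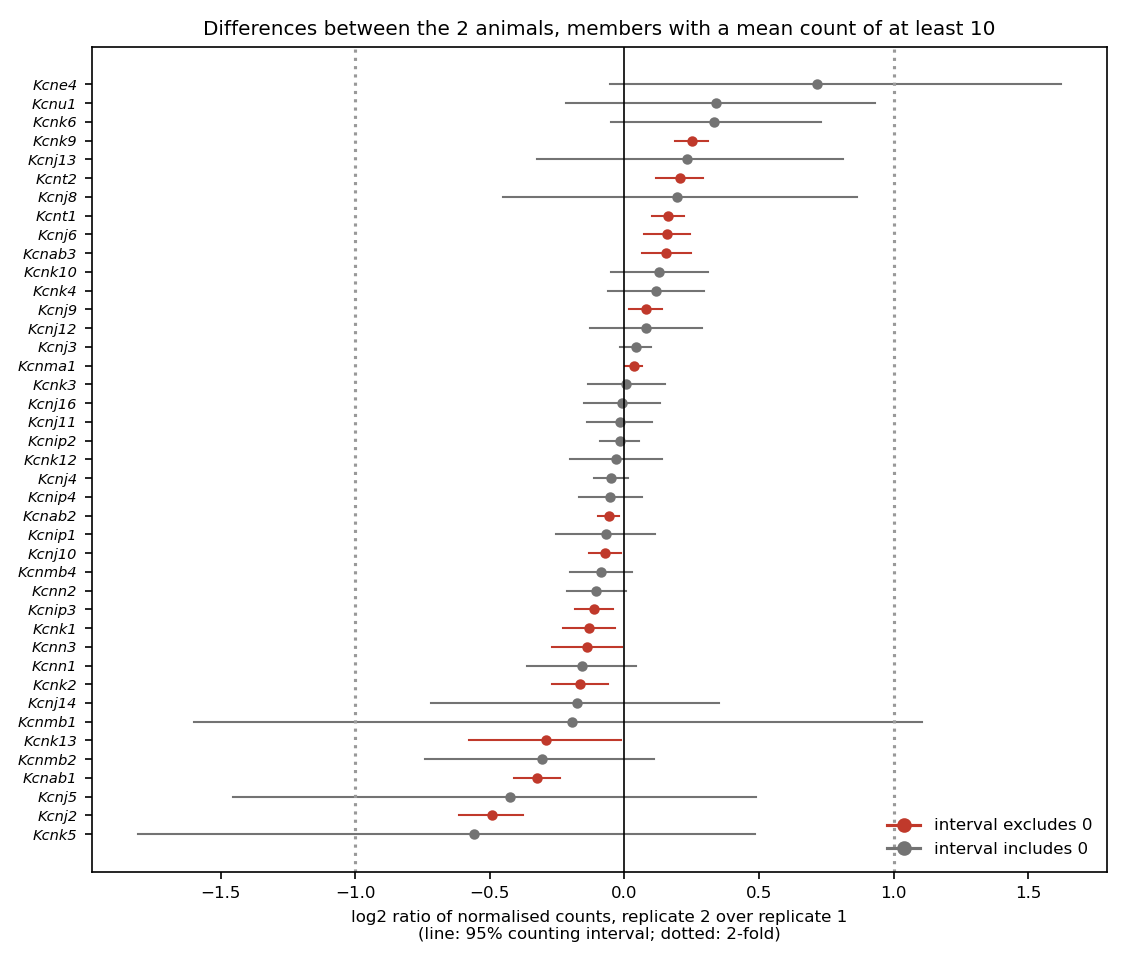
Log2 ratio of normalised counts (replicate 2 over replicate 1) for the 41 members with a mean count of at least 10, with 95% counting intervals as lines and 2-fold as dotted lines; red marks intervals that exclude 0. Kcnj2 and Kcnab1 lie farthest to the left among the red points and Kcnk9 farthest to the right, and all points lie inside the 2-fold lines.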

How the data were processed

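Total RNA, with spike-in RNAs added, was sequenced from 2 tissue samples, 1 library each, per the labels. The authors deposited gene tables with expected counts and TPM, and for each gene a posterior SD, used here as a score of assignment uncertainty; per the file headers and notes these came from alignments to the transcriptome. The deposited transcript tables with estimated counts and TPM were made from reads with a transcript index, and serve as the other quantification. The build was mm10 with GENCODE M21 per the labels and headers; the aligner is not given in the sources used here. Reads of the castaneus parent were measured against this C57BL/6-based reference, and the effect of that was not tested.

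Levels are deposited TPM, mean ± SD over 2 animals. Expected counts were rounded, scaled with TMM in edgeR 4.0.16 and turned into log2 ratios with a prior count of 2 where the mean count reached 10. Intervals are 95% Clopper-Pearson intervals of the count ratio (SciPy 1.17.1). The 96 spike-in rows and the 26249 rows naming no annotated gene stayed out; spike-ins held 0.428% and 0.345% of the counts, and rows naming no gene 1.784e-05% and 2.483e-05%. No count model was fitted, since there is 1 group. The computation was tested on simulated data. Members detected had a TPM of at least 1 in both animals. Transcript shares are of the gene's summed transcript TPM. The rule for the genes named between the animals was a counting interval excluding 0 and an absolute log2 ratio of at least 0.2. Alternatives were spike-in scaling, size factors of DESeq2 1.42.0, other prior counts and minima, the other quantification, TPM over protein-coding genes, and leaving out each animal. The members, partner lists and marker lists were chosen with earlier results of these data known; 1 partner gene is not reported here. Without molecular identifiers, PCR reads are not independent molecules, and intervals cover counting error only.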

Additional observations from a re-analysis of the deposited data

How the results depend on the processing

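The summed TPM of 1148 became 1888 in the other quantification and 2357 when TPM was taken over protein-coding genes only. In the other quantification the class shares became 25.96% for inward rectifiers, 10.94% for two-pore leak channels, 3.789% for small and intermediate conductance channels, 4.577% for BK beta and 26.37% for Kv beta genes; there the inward rectifiers led in replicate 1 and the Kv beta genes in replicate 2. The median share of the leading transcript, 65.2%, was 58.31% there and 72.82% over protein-coding transcripts.

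With spike-in scaling the median log2 ratio of the members became 0.285 (all genes 0.316), 31 members instead of 16 exceeded counting error (30 higher, 1 lower, and 66.6% of all genes exceeded it), 1 differed by 2-fold (Kcne4), and Kcnk13 had a ratio of 0.0233. Without a count minimum 3 members differed by 2-fold, Kcne2, Kcne3 and Kcnj15, each with 9 counts or fewer in either animal. The 16 members beyond counting error under TMM were also beyond it with DESeq2 size factors, and 14 of them in the other quantification. With 2 animals a single library left out gives a level with no error. No paired analysis was possible because there is 1 group.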
